A study of Mus musculus with 8 samples.

Results

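The dystrophin-glycoprotein complex and the dystrophin-related protein utrophin were followed at the transcript level in tibialis anterior (TA) muscle through 8 genes: *Dmd*, *Utrn*, *Dag1*, *Sgca*, *Sgcb*, *Sgcd*, *Sspn* and *Sntb1*. These genes were taken by symbol from the 12551 genes of the count data, and all 8 were counted. They were compared between 4 wild-type (WT) and 4 Klotho null/null (KL-/-) muscles.

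The complex spans the muscle fiber membrane and links the actin cytoskeleton to laminin in the basement membrane. Dystrophin binds actin inside the fiber, dystroglycan crosses the membrane and binds laminin through its sugar chains, the sarcoglycans and sarcospan form a subcomplex beside dystroglycan, and the syntrophins and dystrobrevins attach signaling proteins. Utrophin is a close relative of dystrophin that is concentrated at neuromuscular and myotendinous junctions in mature muscle. Loss of dystrophin causes Duchenne muscular dystrophy, and loss of a sarcoglycan causes a limb-girdle form.

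WT and KL-/- mice were male, 7 weeks of age, and bred from Klotho +/- mice of mixed background. Klotho is absent from the whole animal in this model, so an effect on muscle itself and one through the circulation cannot be told apart. Whole muscles were snap frozen, 100 ng of RNA entered each library, and the sample records name total RNA where the methods name mRNA. KL-/- replicate 3 carries a batch date of its own, and the fit without it is therefore the within-batch fit of 4 against 3. *Kl* itself is not among the counted genes, so the genotype of each library rests here on its label. The authors typed their mice by PCR and could not detect *Kl* mRNA or Klotho protein in KL-/- muscle.

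Counts on genes ranged from 20860262 to 29273758 per library, which puts 3 counts at 0.102 to 0.144 on the scale of counts relative to sequencing depth (CPM). CPM values below were scaled with edgeR's TMM factors, fold changes are KL-/- over WT, and FDR is the Benjamini-Hochberg adjusted p of edgeR's quasi-likelihood test over all genes. Means are given ± SD with n = 4 mice per genotype, and the tests measure the spread between these mice. The 5 myofiber markers (*Ckm*, *Acta1*, *Ttn*, *Tnnt3* and *Mybpc2*) were abundant in every library, with a summed level of 72088 to 81926 CPM in WT muscle and 84750 to 103214 CPM in KL-/- muscles. The sums did not overlap, and of the 5 genes 0 passed the FDR threshold of 0.05 in edgeR, 2 were higher at an unadjusted p under 0.05 and DESeq2 called 3 higher. In whole muscle, a change in the share of a cell type and a change in RNA per cell cannot be told apart.

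*Dmd* and *Sntb1* were higher in KL-/- muscle and none of the 8 genes passed the test in the lower direction. The threshold was passed by 14.0% of all genes, 7.35% in the higher and 6.67% in the lower direction. At an unadjusted p under 0.05, which 32.1% of all genes reached, 3 of the 8 genes were higher and 2 were lower, and DESeq2 called those 5 genes, with 19.6% of the genes it tested. The genotypes did not overlap for 4 of the 8 genes (3 above and 1 below WT), against 19.7% of all genes (10.2% above and 9.47% below). The median log2 fold change of the 8 genes was 0.016 and that of all genes was −0.016. Scaled by library totals instead of TMM factors, the median of all genes was −0.13, and the share of higher genes among those called was 18.8% rather than 52.4%.

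**Figure D1:**
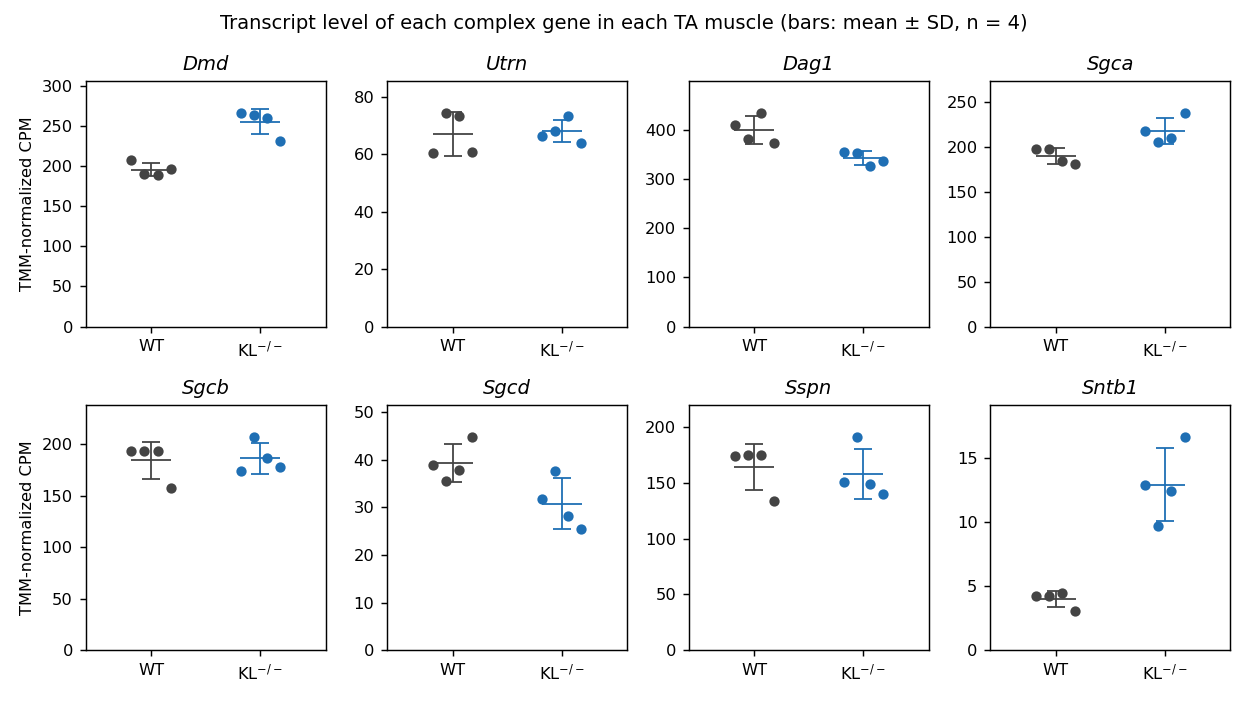
Level of each of the 8 genes in TMM-normalized CPM (y axis from 0) in WT (gray) and KL-/- (blue) TA muscles, with one point per mouse and bars for the mean ± SD (n = 4). *Dmd*, *Sgca* and *Sntb1* lie wholly above the WT range in KL-/- muscle, *Dag1* lies wholly below it, and the other 4 genes overlap.

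*Dmd* encodes dystrophin, the actin-binding rod of the complex (chrX:82948870-85205050 of mm10, + strand, with 79 counted exon blocks over 13852 bases). Its level in WT replicates 1 to 4 was 208, 190.2, 189 and 196 CPM, and in KL-/- replicates 1 to 4 it was 266, 264, 260.4 and 232 CPM. Every KL-/- muscle was above every WT muscle, and the lowest KL-/- value was that of replicate 4. On average it was 196 ± 8.54 CPM in WT muscle and reached 255 ± 16.0 CPM without Klotho, a 1.31-fold increase (95% interval 1.18 to 1.44). On the log2 scale the increase was 0.39 with a standard error of 0.063 (FDR = 0.00733). Within the batch it was 0.38 (FDR = 0.0246), and with library totals it was 0.27 (FDR = 0.0204). Among the 922 genes called higher, *Dmd* ranked 516 by log2 fold change. The myofiber marker sum lay higher in the same muscles, and its part in the *Dmd* difference was not tested.

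The 250 bases before an annotated start site of *Dmd*, *Dag1* and *Sgca* are shown because these are the genes without overlap between genotypes for which RefSeq start sites were given here. The windows are chrX:82948620-82948869 (+ strand) for *Dmd*, chr9:108263959-108264208 (− strand) for *Dag1* and chr11:94976328-94976577 (− strand) for *Sgca*, on GRCm38.p6, which is the mm10 assembly. Capitals mark every match on either strand to TATAAA (the TATA box), GGGCGG (bound by Sp1-family factors), TTCCGG (the core read by ETS-family factors), CANNTG (the E-box bound by myogenic factors) and the CArG box (bound by serum response factor).
*Dmd*: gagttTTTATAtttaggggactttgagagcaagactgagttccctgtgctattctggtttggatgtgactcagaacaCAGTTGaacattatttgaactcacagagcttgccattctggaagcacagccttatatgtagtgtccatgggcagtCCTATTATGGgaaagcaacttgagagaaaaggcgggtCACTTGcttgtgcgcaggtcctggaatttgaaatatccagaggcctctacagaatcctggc
*Dag1*: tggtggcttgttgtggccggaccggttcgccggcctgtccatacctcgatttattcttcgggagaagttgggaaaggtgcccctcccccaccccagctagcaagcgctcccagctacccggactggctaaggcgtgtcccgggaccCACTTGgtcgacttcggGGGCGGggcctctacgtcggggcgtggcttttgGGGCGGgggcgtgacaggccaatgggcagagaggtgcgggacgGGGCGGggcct
*Sgca*: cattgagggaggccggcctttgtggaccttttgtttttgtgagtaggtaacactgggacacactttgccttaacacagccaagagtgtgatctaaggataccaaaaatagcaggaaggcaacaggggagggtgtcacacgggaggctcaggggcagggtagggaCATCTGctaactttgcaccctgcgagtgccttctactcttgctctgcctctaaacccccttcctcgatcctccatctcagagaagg
The *Dmd* window holds a CArG box that begins 98 bases before the start site, CANNTG at 173 and 61 bases and TATAAA on the other strand at 245 bases. A CArG box occurs in 1.47% of the 32851 RefSeq windows of this length, whereas CANNTG occurs in 66.2% and TATAAA in 12.4%. The *Dag1* window holds GGGCGG 3 times, at 87, 54 and 11 bases, and CANNTG at 104 bases, in a sequence of 67.6% G and C. GGGCGG is present in 32.7% of windows, and the median window has 52.4% G and C. The *Sgca* window holds CANNTG at 86 bases and no other match. TTCCGG, present in 12% of windows, is in none of the 3. RefSeq gave a second start site for *Dmd* (85048295), whose window holds GGGCGG 3 times and no other match, and for *Dag1* (108263815), whose window overlaps the first and has 74.8% G and C. RefSeq also extends *Dmd* upstream to 82814664, before the counted span, and no window at that end was given here. Which start site the reads come from was not measured. These matches describe letters in the reference, and binding was not measured.

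*Utrn* encodes utrophin, which can take the place of dystrophin at the membrane (chr10:12382188-12861735, − strand). Its level was 60.4, 74.4, 73.2 and 60.7 CPM in WT replicates 1 to 4 and 66.5, 68.3, 73.2 and 64.1 CPM in KL-/- replicates 1 to 4. All 4 KL-/- values lay within the WT range. The means were 67.2 ± 7.66 and 68.0 ± 3.86 CPM, which differ by 0.018 on the log2 scale with a standard error of 0.086 (FDR = 0.904). The 95% interval of −0.17 to 0.21 excludes a change as large as that fitted for *Dmd*. The sign of this small difference was negative (−0.10) with library totals.

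The balance between the paralogs was compared within each library, where library scaling cancels. The log2 ratio of *Utrn* to *Dmd* counts was −1.78, −1.35, −1.37 and −1.69 in WT and −2.001, −1.95, −1.83 and −1.85 in KL-/- replicates 1 to 4. Every KL-/- muscle had a lower ratio than every WT muscle. The mean ratio was −1.55 ± 0.22 in WT and −1.91 ± 0.080 in KL-/- muscle, a difference of −0.36 on the log2 scale (p = 0.0286 in a two-sided exact permutation test, the lowest value possible with 4 mice per genotype). Within the batch the difference was −0.39 (two-sided exact permutation test, p = 0.0571), the ratio in KL-/- muscle again being below WT in all 3 mice. Per kilobase of counted exons, utrophin made up 27.8% ± 3.04 of the summed dystrophin and utrophin transcripts in WT and 23.0% ± 0.982 in KL-/- muscle. *Utrn* itself differed by 0.018 and *Dmd* by 0.39 on the log2 scale, so the ratio test largely restates the *Dmd* difference. The log2 ratio of *Sgcb* to *Dmd* differed by −0.37, also without overlap.

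*Dag1* encodes dystroglycan, the laminin receptor at the core of the complex (chr9:108204861-108263958, − strand). Its level was 409, 381, 434 and 373 CPM in WT replicates 1 to 4 and 356, 352, 327 and 336 CPM in KL-/- replicates 1 to 4. All KL-/- values were below the lowest WT value. The means were 399 ± 28.0 and 343 ± 13.6 CPM, a log2 difference of −0.22 with a standard error of 0.066 and an FDR of 0.0533, just outside the threshold. DESeq2 gave an FDR of 0.0158 and library totals gave 0.0121, and without KL-/- replicate 2 the FDR was 0.0475. Within the batch the log2 fold change was −0.20 (FDR = 0.143).

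The 3 sarcoglycans among the 8 genes did not pass edgeR's threshold, and their fitted differences had different signs. *Sgca* encodes alpha-sarcoglycan, which is restricted to striated muscle (chr11:94962777-94976327, − strand). Its level was 197, 197, 184 and 181 CPM in WT muscle and 217, 205, 210.1 and 237 CPM in KL-/- replicates 1 to 4. The genotypes did not overlap, and KL-/- replicate 4 was the highest of the 8 muscles. Means of 189.7 ± 8.60 and 218 ± 14.1 CPM differed by 0.20 on the log2 scale, with a standard error of 0.064 and an FDR of 0.0663. DESeq2 gave an FDR of 0.0245, without KL-/- replicate 2 the FDR was 0.0301, and within the batch the log2 fold change was 0.21 (FDR = 0.1097). With library totals the log2 fold change was 0.080 (FDR = 0.36), and the likelihood ratio test gave an FDR of 0.124.

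*Sgcb*, which encodes beta-sarcoglycan (chr5:73632749-73647731, − strand), was at 193, 194, 193 and 158 CPM in WT muscle and 174, 207, 186 and 178 CPM in KL-/- replicates 1 to 4. The genotypes overlapped over most of their ranges. Its log2 fold change was 0.015, with a 95% interval of −0.18 to 0.21 (FDR = 0.920), and it was negative (−0.10) with library totals.

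*Sgcd*, which encodes delta-sarcoglycan (chr11:46978783-47379302, − strand), was at 38.9, 35.4, 37.9 and 44.8 CPM in WT muscle and 31.7, 37.7, 28.2 and 25.4 CPM in KL-/- replicates 1 to 4. KL-/- replicate 2 lay within the WT range, and the other 3 KL-/- muscles were below it. The means were 39.3 ± 3.98 and 30.7 ± 5.33 CPM, a log2 difference of −0.35 with a standard error of 0.12 (FDR = 0.0818). Without KL-/- replicate 2 it was −0.46 (FDR = 0.0158), and within the batch it was −0.32 (FDR = 0.187). The counted exons of *Sgcd* cover 1399 bases. RefSeq extends the gene from 46971077 to 47989451, so part of the annotated gene lies outside the counted span.

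*Sspn* encodes sarcospan, the small membrane protein of the sarcoglycan subcomplex (chr6:145934147-145965225, + strand). Its level was 174, 175, 175 and 133 CPM in WT muscle and 151, 191, 149 and 140.3 CPM in KL-/- replicates 1 to 4. The lowest and the highest muscle were thus WT replicate 4 and KL-/- replicate 2, as they were for *Sgcb*. The difference was −0.059 on the log2 scale, with a 95% interval of −0.32 to 0.20 (FDR = 0.762). An antisense gene overlaps 69 bases of *Sspn*, and the use of strand in counting is not given in the sources used here.

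*Sntb1* encodes beta1-syntrophin, an adaptor that joins signaling proteins to dystrophin and dystrobrevin (chr15:55639154-55906949, − strand, with 7 counted exon blocks over 2153 bases). RefSeq extends this gene from 55636388 to 55907302, beyond the counted span. It showed the largest difference of the 8 genes. Its raw counts were 103, 91, 117 and 86 in WT and 369, 204, 300 and 442 in KL-/- replicates 1 to 4, well above the floor of 3 counts. Scaled levels were 4.21, 4.21, 4.46 and 3.08 CPM in WT muscle and 12.9, 9.73, 12.4 and 16.7 CPM in KL-/- muscle. The lowest KL-/- muscle, replicate 2, was above the highest WT muscle. The mean rose from 3.99 ± 0.616 to 12.9 ± 2.85 CPM, a 3.25-fold increase (95% interval 2.46 to 4.29). This is 1.70 on the log2 scale with a standard error of 0.18 (FDR = 0.00226), and 1.72 within the batch (FDR = 0.00729). By size it ranked 21 among the 922 genes called higher, starting from a WT level at percentile 21.6 of all genes.

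Markers of several cell types were set beside *Sntb1*. Of 7 genes of the synaptic region of the fiber, 2 were called higher, and their summed level was 103 to 130 CPM in WT muscle and 139 to 151 CPM in KL-/- muscle. Of 5 Schwann cell genes, 2 were called higher, with sums of 40.8 to 77.4 CPM in WT muscle and 80.7 to 96.1 CPM in KL-/- muscle. Both sums were separated between genotypes in the direction of *Sntb1*, as was the myofiber marker sum given above. Within these lists, 2 of the 7 synaptic and 1 of the 5 Schwann cell genes had a negative log2 fold change. Smooth muscle and pericyte genes summed to 333 to 505 CPM in WT muscle and 373 to 469 CPM in KL-/- muscle, with 1 of 7 called higher. Satellite cell genes summed to 30.5 to 38.0 CPM in WT muscle and 33.3 to 38.2 CPM in KL-/- muscle, with 0 of 4 called by edgeR, 0 at an unadjusted p under 0.05 and 0 by DESeq2. Macrophage genes summed to 26.2 to 63.2 and 22.3 to 41.0 CPM, with 1 of 5 called lower. The 2 counted adipocyte genes summed to 1.02 to 5.74 and 1.16 to 20.9 CPM, with 0 called by edgeR, at an unadjusted p under 0.05 or by DESeq2. No counted marker was at 0 in any library. Among all genes, 7.35% were called higher and 6.67% lower. The part of these cells in the *Sntb1* difference was not tested.

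**Figure D2:**
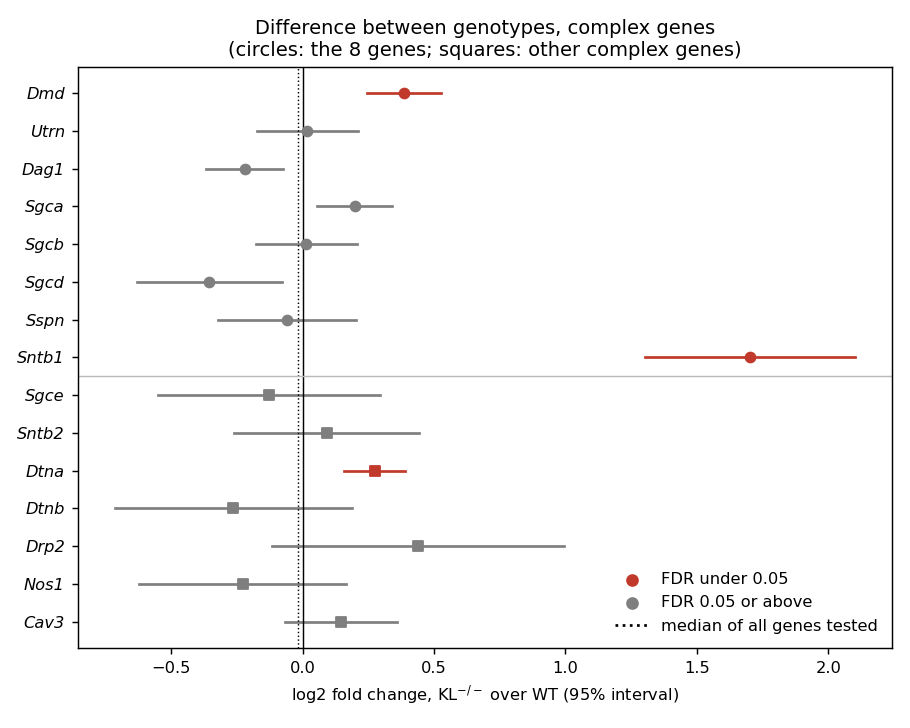
Log2 fold change (KL-/- over WT, x axis) with its 95% interval for the 8 genes (circles) and 7 other genes of the complex (squares), red where the FDR was under 0.05. *Sntb1* stands at 1.70, *Dmd* at 0.39 and *Dtna* at 0.27, and no other interval belongs to a called gene. With library totals every value shifts downward, and those of *Utrn*, *Sgcb* and *Sntb2* turn negative.

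Compared per length, as TMM CPM per kilobase of counted exons, the order of the 8 genes by WT mean was *Sgca* (109), *Dag1* (67.0), *Sgcb* (49.5), *Sspn* (37.3), *Sgcd* (28.1), *Dmd* (14.1), *Utrn* (5.43) and *Sntb1* (1.85). In WT muscle each neighbor in this order was separated from the next by the ranges over 4 mice except *Sspn* and *Sgcd*, which overlapped. In KL-/- muscle the means were 125 for *Sgca*, 57.5 for *Dag1*, 50.0 for *Sgcb*, 35.8 for *Sspn*, 22.0 for *Sgcd*, 18.4 for *Dmd*, 5.50 for *Utrn* and 6.003 for *Sntb1*. *Dag1* and *Sgcb* overlapped in KL-/- muscle, at 54.8 to 59.7 and 46.6 to 55.6. *Dmd* ranged from 16.7 to 19.2 and *Sgcd* from 18.1 to 27.0 in KL-/- muscle, so this pair overlapped there and not in WT muscle. *Sntb1*, below *Utrn* in all WT muscles, reached its level in KL-/- muscle, at 4.52 to 7.74 against 5.18 to 5.91. RefSeq extends each of these genes except *Sgca* beyond its counted exons, so levels per length depend on the exons counted.

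**Figure D3:**
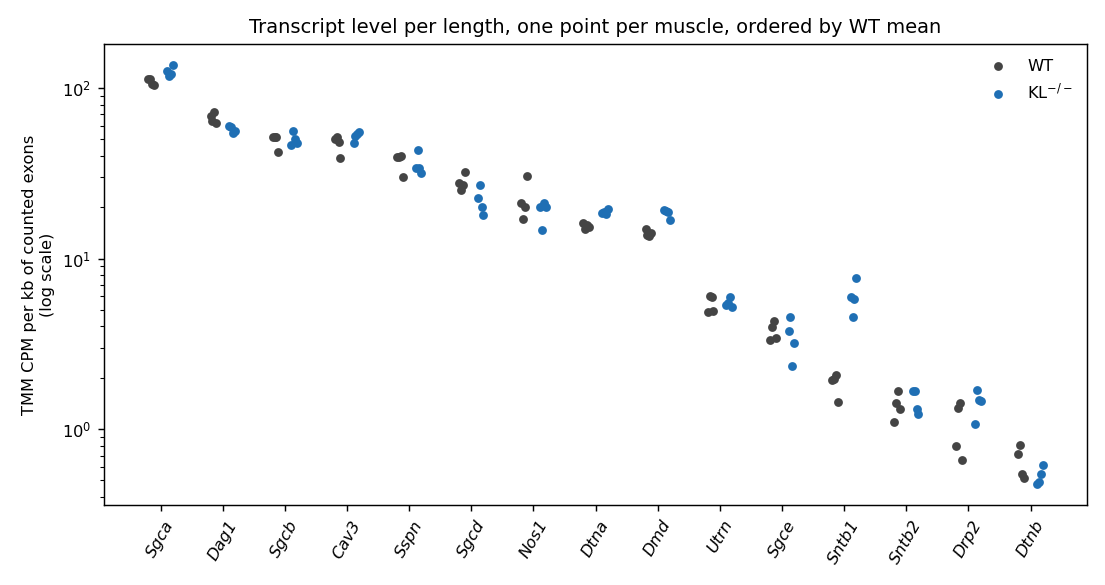
TMM CPM per kilobase of counted exons (log scale) for the 8 genes and 7 others of the complex, ordered by WT mean, with one point per muscle (WT gray, KL-/- blue). *Sgca* is the highest of the genes shown, and *Sntb1* moves from a WT mean of 1.85 to a KL-/- mean of 6.003.

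Relative to *Dmd* within a library, 6 of the 7 other genes had a lower mean in KL-/- muscle. The log2 ratio to *Dmd* counts differed by −0.60 for *Dag1*, −0.37 for *Sgcb* and −0.75 for *Sgcd*, each without overlap between genotypes. It differed by −0.44 for *Sspn* and −0.19 for *Sgca*, with overlap, and by 1.30 for *Sntb1*, with every KL-/- muscle above WT. Apart from the *Utrn* ratio, these were chosen after the values had been seen and carry no test. The *Utrn* ratio was tested, but its genes are members, which were chosen with earlier results of these data known.

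**Figure D4:**
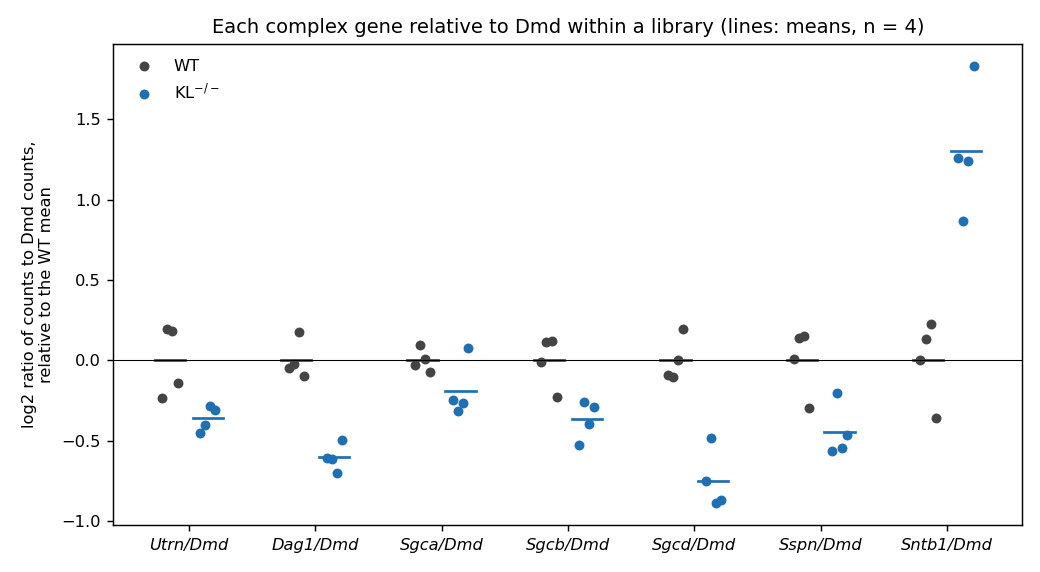
Log2 ratio of the counts of each of the other 7 genes to *Dmd* counts in the same library, relative to the WT mean (y axis), for WT (gray) and KL-/- (blue) muscles, with lines for the means (n = 4). The means of *Utrn*, *Dag1*, *Sgca*, *Sgcb*, *Sgcd* and *Sspn* are below 0 in KL-/- muscle, and that of *Sntb1* is at 1.30.

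Of 12 further genes of the complex, 9 were counted, and *Sgcz*, *Sntg1* and *Sntg2* were not analysed here. *Dtna*, which encodes alpha-dystrobrevin, the syntrophin-binding partner of dystrophin, was called higher, and none was called lower (also 0 at an unadjusted p under 0.05 and 0 in DESeq2). The shares of all genes were 7.35% called higher and 6.67% called lower. *Dtna* was at 120, 110.4, 116 and 113 CPM in WT muscle and 137, 138, 136 and 144 CPM in KL-/- replicates 1 to 4. The genotypes did not overlap. *Dtna* rose by 0.27 on the log2 scale with a standard error of 0.052 (FDR = 0.0113) and 0.29 within the batch (FDR = 0.0303), but with library totals the FDR was 0.0538. Antisense gene *Gm47898* overlaps 90 bases of it.

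None of the other 8 passed the threshold, and 6 of them are described. The log2 fold change was −0.13 for *Sgce* (epsilon-sarcoglycan, FDR = 0.676), 0.092 for *Sntb2* (beta2-syntrophin, FDR = 0.720) and −0.26 for *Dtnb* (beta-dystrobrevin, FDR = 0.392). *Nos1*, the neuronal nitric oxide synthase that syntrophin anchors, differed by −0.23 (FDR = 0.395) and by −0.035 without WT replicate 4, the highest muscle at 296 CPM, and *Cav3*, the caveolin of muscle fibers, by 0.15 (FDR = 0.315). *Drp2*, a dystrophin relative of Schwann cells, differed by 0.44 (FDR = 0.249) beside the Schwann cell marker sums given above.

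Of 18 genes for the sugar chains of dystroglycan, 16 were counted. Of these, 2 were called higher and 1 lower, where 7.35% and 6.67% of all genes were. Their median log2 fold change was −0.079. *Pomgnt1*, which adds N-acetylglucosamine to O-mannose, rose from 63.0 ± 1.82 to 76.5 ± 1.42 CPM (0.28 ± 0.050 SE on the log2 scale, FDR = 0.00903, and 0.27 within the batch with FDR = 0.0320). *Rxylt1*, a xylosyltransferase listed under its older symbol *Tmem5*, rose from 22.5 ± 1.35 to 29.5 ± 1.14 CPM (0.39 ± 0.067 SE on the log2 scale, FDR = 0.00809, and 0.39 within the batch with FDR = 0.0266). *B3galnt2*, which adds N-acetylgalactosamine, fell from 98.5 ± 6.86 to 77.1 ± 5.49 CPM (−0.35 ± 0.072 SE on the log2 scale, FDR = 0.0153, and −0.33 within the batch with FDR = 0.0487). In each of these 3 genes the genotypes did not overlap, as was so for 19.7% of all genes. *B3galnt2* shares 325 bases with *Tbce* on the other strand, and *Pomgnt1* shares 49 bases with *Lurap1*. *Gmppb*, which makes GDP-mannose, differed by −0.49 (FDR = 0.0554), and *Dpm3*, of dolichol-phosphate-mannose synthesis, by −0.39 (FDR = 0.119).

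None of the 9 matrix ligands of dystroglycan passed edgeR's threshold, with 1 higher and 4 lower at an unadjusted p under 0.05 and 2 called lower by DESeq2. Over all genes, 14.0% passed the threshold, 32.1% had an unadjusted p under 0.05, and DESeq2 called 19.6% of those it tested. The median log2 fold change of the ligands was −0.45. *Lama2*, the laminin chain of the muscle basement membrane, averaged 75.7 ± 17.4 CPM in WT against 50.3 ± 11.4 CPM in KL-/- muscle (log2 fold change −0.59, FDR = 0.0645). *Bgn*, the proteoglycan biglycan, was at 116 ± 45.9 and 67.1 ± 16.1 CPM (log2 fold change −0.79, FDR = 0.0748, and −0.51 without WT replicate 3). In the same muscles, fibro-adipogenic markers summed to 696 to 2821 CPM in WT muscle and 362 to 1245 CPM in KL-/- muscle (2 of 5 called lower), endothelial markers to 427 to 630 and 387 to 427 CPM (1 of 6 called lower) and tendon markers to 128 to 153 and 39.8 to 98.5 CPM (1 of 4 called lower). Among all genes, 6.67% were called lower. At an unadjusted p under 0.05, 5 fibro-adipogenic, 3 endothelial and 2 tendon markers were lower. DESeq2 called 3, 2 and 2 of them lower, in the same order. None was higher by either measure. The part of these cells in the ligand values was not tested.

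Of 13 cytoskeletal and signaling partners, 11 were counted, 0 were called higher (3 at an unadjusted p under 0.05 and 2 in DESeq2) and 2 were called lower, with a median of 0.056. Over all genes, the shares called were 7.35% higher and 6.67% lower. *Ank2*, an ankyrin that binds dystrophin, fell from 80.0 ± 5.49 to 64.0 ± 7.73 CPM (−0.32 ± 0.091 SE on the log2 scale, FDR = 0.0460). *Mark2*, a polarity kinase, fell from 55.1 ± 1.68 to 47.6 ± 2.78 CPM (−0.21 ± 0.060 SE on the log2 scale, FDR = 0.0467). Neither call held within the batch, where *Ank2* was at −0.26 (FDR = 0.107) and *Mark2* at −0.22 (FDR = 0.0985). *Mark2* lost the call whichever mouse was left out, and *Ank2* kept it in 2 of 8 such fits, without KL-/- replicate 2 and without KL-/- replicate 4. *Actg1*, the gamma-actin of the costamere, differed by −0.48 (FDR = 0.0928), and *Des*, the muscle intermediate filament desmin, by 0.36 (FDR = 0.0967, and FDR = 0.00593 without KL-/- replicate 2).

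Of 8 factors known to act on the utrophin promoter, none passed edgeR's threshold, with 1 higher and 1 lower at an unadjusted p under 0.05 and 1 called lower by DESeq2. Over all genes these shares were 14.0% past the threshold, 32.1% at an unadjusted p under 0.05 and 19.6% in DESeq2. The median log2 fold change of the 8 factors was −0.10. *Ppargc1a*, a coactivator of oxidative genes, averaged 58.3 ± 5.11 CPM in WT against 83.4 ± 31.9 CPM in KL-/- muscle (log2 fold change 0.52, FDR = 0.136), with KL-/- replicate 1 at 129 CPM, without which it was 0.23, whereas without KL-/- replicate 2 it was 0.67 (FDR = 0.0363). *Ppargc1b*, its relative, was at 19.3 ± 3.99 and 13.6 ± 1.87 CPM (log2 fold change −0.51, FDR = 0.0602).

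**Figure D5:**
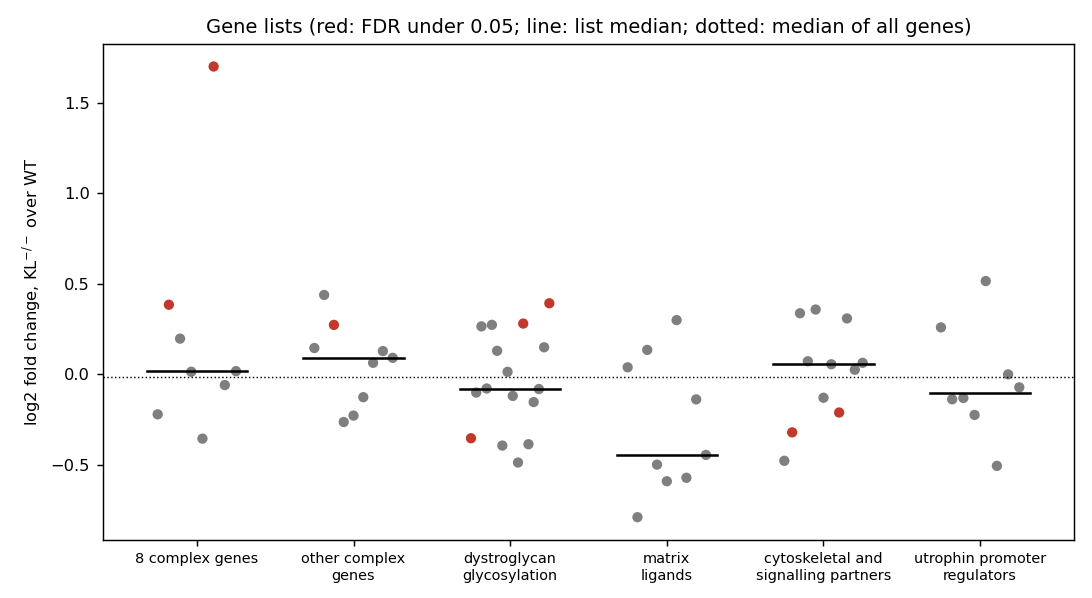
Log2 fold change (KL-/- over WT, y axis) of every counted gene in the 8-gene set and in the 5 lists around it, red where the FDR was under 0.05, with a line at each list's median and a dotted line at the median of all genes. The matrix ligands have the lowest median at −0.45, with no called gene, and the 8 genes have a median of 0.016.

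The genes whose profile over the 8 muscles was most like that of a member were named as a description, by Pearson's r of log2 CPM. For *Sntb1* they were *Gng2*, *Amot* and *Fnbp4* (0.992, 0.986 and 0.985), and for *Dmd* they were *Klhl7*, *Dek* and *Sf3b1* (0.992, 0.979 and 0.972). For *Dag1* they were *Reps2*, *Ept1* and *Crispld2* (0.976, 0.973 and 0.970). For *Sgca* they were *Dvl1*, *Atp5o* and *Keap1* (0.983, 0.973 and 0.972), and for *Sgcd* they were *Rhobtb1*, *Lman2l* and *Zak* (0.987, 0.986 and 0.984). The genes nearest to *Utrn* were *Usp11*, *Lipa* and *Gm15545* (0.939, 0.933 and 0.913). Those nearest to *Sgcb* were *Map2*, *Rsu1* and *Armcx3* (0.953, 0.947 and 0.946), and those nearest to *Sspn* were *Rps3a1*, *Rab23* and *Lix1* (0.981, 0.961 and 0.960). These are the highest values among all other counted genes, the 8 muscles share the difference between genotypes, and no member was among the nearest genes of another.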

How the data were processed

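RNA of whole TA muscle was sequenced in 4 WT and 4 KL-/- mice. The deposited values are counts per gene, which the authors made with featureCounts from STAR alignments to mm10 after removing poorly mapped reads. They are whole numbers without normalization, beside gene lengths. The annotation version and the use of strand are not given in the sources used here.

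Counts were analysed with edgeR 4.0.16 in R 4.3.3: filterByExpr (which kept all 12551 genes), TMM factors, genotype as the only term, the quasi-likelihood test and Benjamini-Hochberg FDR under 0.05 over all genes. Log2 CPM for gene profiles used a prior count of 2. The *Utrn* to *Dmd* ratio was compared by exact permutation over 70 relabelings. Positions are those of the counted exons, and promoter windows are from RefSeq. Fits were tested on simulated data.

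Named genes are the 8 members, the other counted complex genes, in each other list those past the threshold and the 2 with the largest absolute log2 fold change, and the 3 genes most like each member. Members and lists were chosen with earlier results of these data known. Alternatives were RLE factors, library totals, 2 other filters (none, or at least 10 counts in every sample), DESeq2 1.42.0, the likelihood ratio test, a replicate block, each mouse left out and, chosen after seeing the data, the edgeR 3 quasi-likelihood test. For the ratio they were counts per kilobase, the block and each mouse left out. Intervals are at the 95% level. No libraries of a genotype were duplicates, with a chi-square per gene of at least 9.91 between them. List genes without a value (*Sgcz*, *Sntg1*, *Sntg2*, *Krt8*, *Krt19*) were not analysed here. Some list genes are not reported here on their own, and counts and medians over the lists still include those that were counted.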

Additional observations from a re-analysis of the deposited data

Results flagged for a closer look

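Single muscles that stood apart from the other 3 of their genotype were sought in 36 gene and genotype groups by Dixon's test, and 3 were found, where chance alone gives about 1 in 20 groups. For *Dmd*, KL-/- replicate 4 (231.669 CPM) lay below the other KL-/- muscles, at a gap of 0.832 of the whole range, and was still above every WT muscle. For *Sgcb*, WT replicate 4 (157.535 CPM) lay below the other WT muscles at a gap of 0.981. For *Sspn*, the same mouse (133.329 CPM) was low at a gap of 0.98. Without WT replicate 4 the log2 fold change was −0.054 for *Sgcb* (FDR = 0.644), against 0.015 with it.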

How the results depend on the processing

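*Dmd*, *Sntb1* and *Rxylt1* (*Tmem5*) were called in the same direction under all 16 alternatives. Of these, the fit without a filter repeats the main fit, because filterByExpr kept all 12551 genes. Leaving out 1 mouse gave 0.37 to 0.43 for *Dmd* (FDR 0.00613 to 0.0273) and 1.56 to 1.82 for *Sntb1* (FDR 6.44e-04 to 0.00999) on the log2 scale. With library totals the values were 0.27 for *Dmd* (FDR = 0.0204) and 1.58 for *Sntb1* (FDR = 0.00203). The number of members called was 4 with library totals (*Dmd*, *Dag1*, *Sgcd* and *Sntb1*), 5 with DESeq2 (these and *Sgca*) and 2 to 5 when a mouse was left out, 5 of them without KL-/- replicate 2. The log2 fold change of *Dag1* was −0.34 with library totals (FDR = 0.0121), −0.21 with DESeq2 (FDR = 0.0158) and −0.25 to −0.18 with a mouse left out. In the same order, that of *Sgcd* was −0.47 (FDR = 0.0292), −0.35 (FDR = 0.0469) and −0.46 to −0.27. That of *Sgca* was 0.080 (FDR = 0.36), 0.21 (FDR = 0.0245) and 0.15 to 0.23. With library totals, *Utrn* (−0.10), *Sgcb* (−0.10) and *Sntb2* (−0.027) turned negative. Leaving out a mouse gave −0.030 to 0.070 for *Utrn*, −0.054 to 0.057 for *Sgcb* and −0.27 to 0.020 for *Sgce*. None of these 4 genes was called in any of these fits. The *Utrn* to *Dmd* difference was −0.44 to −0.30 with a mouse left out (exact permutation p 0.0286 to 0.0857), where 4 against 3 mice allow no p under 0.0286. Genes called over the whole table numbered 762 to 2755 with a mouse left out (762 without KL-/- replicate 3, 775 without WT replicate 3, 778 without KL-/- replicate 4, 780 without WT replicate 2, 2755 without KL-/- replicate 2), 2619 with library totals, 2456 with DESeq2, 2124 with the likelihood ratio test and 1715 with the edgeR 3 test. The other complex genes called were 0 with library totals and 1 to 2 with a mouse left out. The cause of these changes was not tested.

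Replicate numbers are shared between genotypes, but same-numbered muscles did not deviate together (r of −0.15, 0.18, −0.37 and 0.017). Deviations from a mean of 4 mice offset one another, so these values cannot show whether the mice were paired. With the replicate block, 671 genes, both *Dmd* and *Sntb1* and 0 of the other complex genes were called, and *Dtna* (FDR = 0.0591), *Pomgnt1* (0.0547), *B3galnt2* (0.0626), *Ank2* (0.0547) and *Mark2* (0.107) lost their calls. The blocked *Utrn* to *Dmd* difference was −0.36 (exact sign-flip p = 0.125, the smallest that 4 pairs allow). Of 320 values for 20 named genes outside the members, 273 kept direction and side of the threshold, 22 lost the call, 23 gained it and 2 turned sign. The values without a filter, which repeat the main fit, are among those kept.

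*Sntb1* rests on 86 to 442 counts per library, the fewest of the members, and 4 mice per genotype limit what can be told apart. Protein was not measured, and isoforms of *Dmd* and *Utrn* share 1 count each.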
